A study of Mus musculus with 4 samples.

Results

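Izumo1r Cxcr3 cells are thymic invariant natural killer T (iNKT) cells that carried transcripts of both an iNKT1 marker and at least 2 of the 4 genes Izumo1r, Cxcr3, Podnl1 and Gm8369. They numbered 2667 of the 19647 cells kept from 4 libraries, 13.57% of them. A cell was taken when it held at least 1 unique molecular identifier (UMI, 1 counted molecule) of Nkg7 or Klrb1c, a UMI of at least 2 of the 4 marker genes, fewer than 2 of the iNKT2 genes Il6ra, Il17rb, Eng, Ccr4 and Tnfsf11, fewer than 2 of the late iNKT1 genes Ccl5, Gzma, Ifitm3, Ly6c2 and Cd244, fewer than 3 of the interferon genes Ifit1, Ifit3, Isg15, Rsad2 and Usp18, and fewer than 2 of the division genes Top2a, Birc5, Ccnb2 and Rrm2. The 4 markers were picked from an earlier clustering of the same cells, so the levels of these 25 genes are given as a description and were left out of every test. Cells called early iNKT1 here were not followed over time, and "early" is a working name.

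iNKT cells carry a nearly fixed T cell receptor that recognizes lipids on CD1d, and they differentiate in the thymus into iNKT1, iNKT2 and iNKT17 cells. iNKT1 cells depend on the transcription factor T-bet (Tbx21), carry the interleukin 15 receptor chain CD122 (Il2rb) and acquire natural killer receptors as they mature, whereas iNKT2 cells have the highest level of the transcription factor PLZF (Zbtb16) and transcribe Il4. Izumo1r encodes folate receptor 4, a surface protein also used to mark iNKT2 cells, and Cxcr3 encodes a chemokine receptor of T-bet-dependent lymphocytes. Podnl1 encodes a leucine-rich repeat protein. HIVEP3 is a large zinc finger protein that binds kappaB-like DNA motifs.

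Cells that bound a PBS57-loaded CD1d tetramer were sorted from the thymi of untreated C57BL/6 mice and of Hivep3-/- mice on a C57BL/6 background, all 8 to 9 weeks old, with 2 mice per genotype and 1 library per mouse. The C57BL/6 mice were purchased and the Hivep3-/- mice came from another laboratory, so the groups were not described as littermates. The sort pooled CD44low and CD44high cells in equal numbers, so every share of cells below depends partly on that mixing. The libraries were made with droplet 5′ chemistry and held raw UMI counts per gene and cell.

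After the thresholds on genes, UMIs and mitochondrial transcripts, C57BL/6 replicate 1 kept 7231 cells and replicate 2 kept 3651, and the Hivep3-/- replicates kept 4598 and 4167. Izumo1r Cxcr3 cells numbered 834, 774, 613 and 446 in that order, the order used for every set of 4 values in this text. Their median depth was 3910.5, 5035, 6660 and 6102 UMIs per cell, so the C57BL/6 cells were shallower, and their summed counts ranged from 2949326 to 4405203 UMIs. The C57BL/6 libraries differed from each other in sex-linked transcripts. In the Izumo1r Cxcr3 cells Xist had 937, 0, 1 and 0 UMIs and the Y-linked genes 0, 786, 471 and 486 UMIs. The study describes the sorted C57BL/6 mice as female, which the Y-linked UMIs of C57BL/6 replicate 2 go against. By these transcripts only C57BL/6 replicate 1 was female, so sex was not balanced between the genotypes. C57BL/6 replicate 1 also stood apart in immediate early genes, with Dusp1 at 3216, 965, 333 and 997 CPM (UMIs scaled to a fixed total of UMIs of the class in the library) and Fos at 925, 278, 313 and 561 CPM. Pairs of libraries shared between 18 and 43 cell barcodes, and among Izumo1r Cxcr3 cells at most 3. Scrublet's own threshold marked 1 to 4 cells per library as doublets and had not worked, so doublets were kept. Of the Izumo1r Cxcr3 cells, 8.27%, 6.72%, 4.08% and 5.83% were in the top 5% of doublet scores of their library, against 3.88%, 3.57%, 4.93% and 4.56% of marker-poor cells (defined next). Their part in the results below was not tested beyond leaving out those cells.

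Further classes of cells were used for comparison, none of which overlapped with the Izumo1r Cxcr3 cells. Marker-poor cells (4682) met every condition but held none or 1 of the 4 marker genes. Late-marker cells (4184) held at least 2 of the late iNKT1 genes, and iNKT2-marker cells (1934) held at least 2 of the iNKT2 genes. Nkg7 or Klrb1c was required of late-marker cells but not of iNKT2-marker cells. Izumo1r Cxcr3 cells had iNKT1 transcripts in every library. Tbx21 was at 96.2, 104, 118 and 94.6 CPM, against 8.27 to 13.3 CPM in iNKT2-marker cells. Il2rb was at 578, 673, 631 and 611 CPM and Xcl1, a chemokine of cytotoxic cells, at 415, 382, 536 and 731 CPM. Cd24a, which marks stage 0 precursors, was near 0, at 0.786, 0.454, 0 and 1.70 CPM. Other stage 0 markers were present, with Id3, Lef1, Itm2a and Ikzf2 counted in 20.6% to 30.6% of the cells. The 9 stage 0 markers summed to 468, 373, 413 and 397 CPM. They were at 211 to 335 CPM in late-marker cells and at 358 to 877 CPM in marker-poor cells. Other lists were mixed. Rag1 and Rag2 of double positive thymocytes, Foxp3 of regulatory T cells, Trdv4 of gamma delta T cells and Ms4a1 and Igkc of B cells had 0 UMIs in the Izumo1r Cxcr3 cells of all 4 libraries. Ighm of the B cell list was counted in 48.1% of these cells and Tcrg-C1 of the gamma delta list in 26.8%, at 51.1, 104, 96.2 and 149 CPM. The summed level of the 6 B cell markers was 115 to 162 CPM in Izumo1r Cxcr3 cells, nearly all of it Ighm (114 to 161 CPM), and 107 to 164 CPM in marker-poor cells.

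As chosen by the rule, Izumo1r was at 387 and 451 CPM in the C57BL/6 and at 226 and 257 CPM in the Hivep3-/- libraries. Izumo1r was not particular to these cells: in iNKT2-marker cells it was at 326, 402, 452 and 427 CPM, within or above the range of the Izumo1r Cxcr3 cells. Cxcr3 was at 319, 309, 336 and 287 CPM, against 33.1 to 44.9 CPM in iNKT2-marker cells and 207 to 251 CPM in late-marker cells. Podnl1 reached 78.0 to 94.4 CPM and was at 15.4 to 45.5 CPM in iNKT2-marker and late-marker cells, and Gm8369 reached 30.9 to 45.1 CPM against 7.82 to 17.7 CPM. In the 16 kept cells with B cell markers (median depths of 2613 to 5350.5 UMIs over the libraries), 2 held Cxcr3 and none held Izumo1r or Podnl1. In the 48 kept cells with double positive thymocyte markers (1503 to 4407 UMIs), 4 held Izumo1r, 3 held Podnl1 and 1 held Cxcr3. Gm8369 was counted in 8 of the 16 cells with B cell markers and in 0 of these 48, against 16.9% of the Izumo1r Cxcr3 cells. The source of its UMIs in cells with B cell markers was not tested. By GENCODE vM21 on GRCm38, the assembly of mm10, Izumo1r lies on chromosome 9 at 14885814 to 14903949, Cxcr3 on chromosome X at 101731535 to 101734269, Podnl1 on chromosome 8 at 84125989 to 84132527 and Gm8369 on chromosome 19 at 11485938 to 11512577.

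Most Izumo1r Cxcr3 cells held exactly 2 markers (2061 cells), 562 held 3 and 44 held all 4. The pair Izumo1r and Cxcr3 alone accounted for 1238 cells, with 49.6%, 47.0%, 43.2% and 43.7% of the cells of each library. The pair Cxcr3 and Podnl1 was the next most frequent (431 cells), with 13.4% and 10.98% of C57BL/6 against 22.2% and 22.0% of Hivep3-/- Izumo1r Cxcr3 cells. Gm8369 was the rarest marker and was counted in 450 cells. The cells just outside the rule, with 1 marker, had a lower median depth (3523, 4468.5, 6516 and 6030 UMIs) than those just inside with 2 (3847, 4883, 6611 and 6048 UMIs). Zbtb16 was at 145, 85.2, 75.4 and 85.4 CPM in cells with 1 marker and at 154, 103, 66.5 and 74.7 CPM in cells with 2, so it was higher inside the threshold in the C57BL/6 and lower in the Hivep3-/- libraries.

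**Figure D1:**
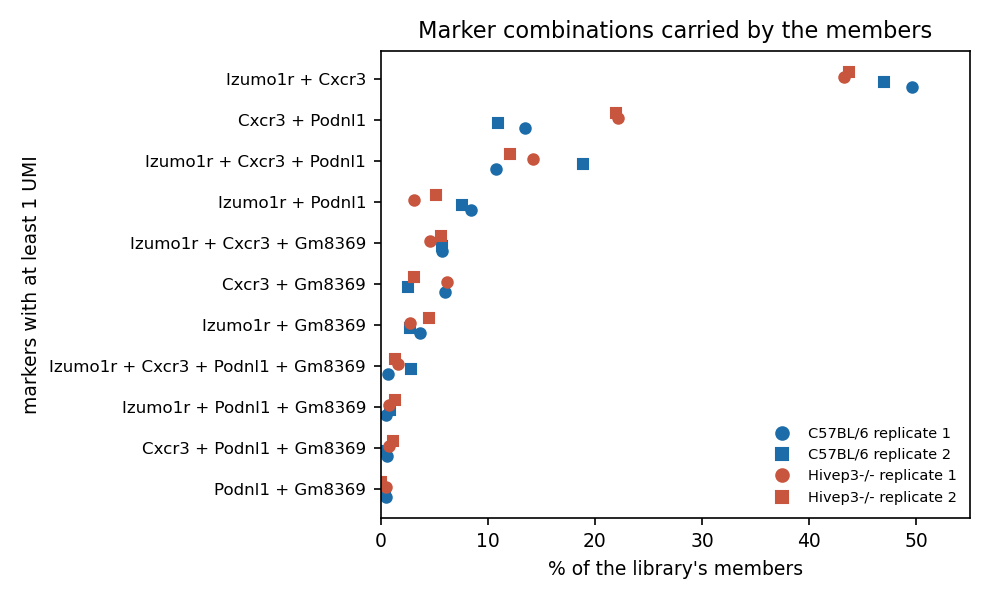
Share of the Izumo1r Cxcr3 cells of each library (x axis, percent) that held each combination of the 4 markers (y axis), 1 point per library. The pair Izumo1r and Cxcr3 takes 43.2% to 49.6% in every library, and the pair Cxcr3 and Podnl1 takes a larger share in both Hivep3-/- libraries (22.2% and 22.0%) than in both C57BL/6 libraries (13.4% and 10.98%).

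Izumo1r itself divided the cells, as a description within the rule. It was counted in 663, 663, 431 and 329 of them. The cells without it had slightly lower median depth in every library (3601 against 4025 UMIs in C57BL/6 replicate 1). Cells without Izumo1r met the rule through the other markers, most often through Cxcr3 and Podnl1 (431 cells). Among cells with Izumo1r the most frequent combination was Izumo1r and Cxcr3 alone (1238 cells). The split by Izumo1r was therefore partly a split by Podnl1. The part of each marker in the differences below was not tested. Cells with Izumo1r had more Zbtb16 in all 4 libraries, at 167, 114, 86.4 and 97.2 CPM against 117, 63.0, 54.7 and 51.5 CPM in cells without it. Lef1, a transcription factor of immature thymocytes, followed the same direction with 137, 111, 63.9 and 67.8 CPM against 69.4, 55.8, 16.6 and 21.7 CPM. Nkg7, a granule protein of cytotoxic lymphocytes, and Cxcr6, a chemokine receptor of resident iNKT1 cells, went the other way in all 4 libraries. Nkg7 is itself a gene of the rule, so its level is not free of the rule. Nkg7 was at 1079, 1375, 1355 and 1404 CPM in cells with Izumo1r and at 1350, 1817, 1751 and 1779 CPM in cells without. Cxcr6 was at 338, 294, 435 and 296 CPM against 590, 515, 586 and 473 CPM. Tbx21 was lower in cells with Izumo1r in 3 of the 4 libraries, at 96.7, 99.0, 106 and 88.2 CPM against 94.0, 135, 149 and 114 CPM.

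The share of Izumo1r Cxcr3 cells was compared between genotypes to ask whether these cells were gained or lost. They made up 11.5% (95% Wilson interval 10.8 to 12.3) and 21.2% (19.9 to 22.6) of kept cells in C57BL/6, and 13.3% (12.4 to 14.3) and 10.7% (9.80 to 11.7) in Hivep3-/-. These intervals cover counting error only, and the C57BL/6 libraries lay on either side of Hivep3-/- replicate 1. The means of 16.4% ± 6.83 and 12.02% ± 1.86 (SD, n = 2 mice) overlapped, with a two-sided exact permutation p of 0.667, where 2 against 2 mice cannot give a p below 0.333. The difference was -4.35 percentage points, and 0.484 when C57BL/6 replicate 2 was left out. Among cells with Nkg7 or Klrb1c the shares were 18.7% and 27.8% in C57BL/6 and 17.3% and 15.1% in Hivep3-/-, with no overlap (exact permutation p 0.333). Since deeper cells show more markers, each cell was also thinned to 2000 UMIs. This left out 502 and 91 C57BL/6 and 82 and 75 Hivep3-/- cells. The whole rule was applied again to the thinned counts, so cells could leave and enter every class, also in the thinned gene tests. The shares of kept cells were then 6.03% and 9.92% in C57BL/6 and 5.07% and 3.98% in Hivep3-/-, again with no overlap (exact permutation p 0.333). Thinned and among cells with Nkg7 or Klrb1c, they were 11.4% and 14.1% against 7.06% and 6.25%. With at least 3 markers the shares of kept cells were 2.12% and 6.08% against 2.94% and 2.30% (exact permutation p 1), and without the highest doublet scores they were 11.1% and 20.7% against 13.4% and 10.6% (exact permutation p 0.667). The share was lower in both Hivep3-/- mice in 3 of these 6 counts, and a smaller share of cells cannot be told apart here from fewer marker transcripts per cell, since Izumo1r had a lower level in the Hivep3-/- cells.

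**Figure D2:**
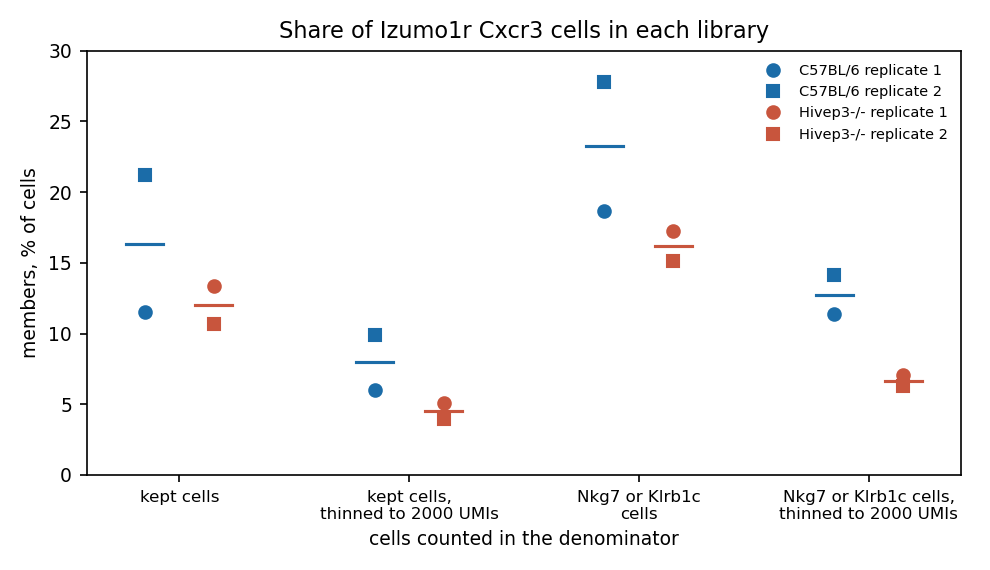
Izumo1r Cxcr3 cells as a percentage of cells (y axis) over 4 denominators (x axis), 1 point per library with the genotype mean as a short line. The genotypes overlap among all kept cells and do not overlap in the other 3 counts, where the Hivep3-/- points lie between 3.98% and 17.3%.

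Genes were compared between genotypes within the Izumo1r Cxcr3 cells on the UMIs summed per library. The targeted gene, Hivep3 (chromosome 4, 119733784 to 120138045), was at 34.1 and 26.3 CPM in C57BL/6 and at 47.5 and 39.7 CPM in Hivep3-/-. The deleted stretch of the gene was not stated in the text at hand, and counts of 5′ ends do not show which exons a transcript held, so this does not check the genotype labels. Its log2 difference of 0.45 (SE 0.19) did not pass the test (adjusted p 0.660, edgeR's quasi-likelihood test, p adjusted by Benjamini-Hochberg over all genes tested, as for every gene test that follows).

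Drosha, the nuclease that cuts primary microRNA transcripts, showed the clearest fall in Hivep3-/- Izumo1r Cxcr3 cells. Il4, Cd4 and the transcription factor genes Lef1 and Rora fell with it, while several killer receptor genes rose. Of 9536 genes tested, 35 were called (0.367%), 21 higher (0.22%) and 14 lower (0.147%) in Hivep3-/-. In these cells the 8 iNKT2 markers, which include Il4 and Cd4, summed to 886, 656, 455 and 400 CPM. The 8 late iNKT1 markers, which include Klra5, summed to 726, 1116, 1459 and 1564 CPM. Both lists hold genes that the rule limits, Il6ra and Il17rb in the first and Gzma, Ccl5, Ly6c2 and Ifitm3 in the second. They also hold genes called here, so the sums are a description only. Whether the makeup of the Izumo1r Cxcr3 cells differed between genotypes, and its part in the called genes, was not tested. Drosha had 128 and 147 CPM in C57BL/6 and 15.2 and 11.5 CPM in Hivep3-/-, a log2 difference of -3.44 (SE 0.19, adjusted p 0.000188). This fall was not particular to these cells. Cells with 1 marker that met the other conditions had 131 and 103 CPM against 14.7 and 16.8 CPM. Il4, the cytokine of iNKT2 cells, had 98.3 and 105 CPM against 44.0 and 44.1 CPM (-1.30, SE 0.16, adjusted p 0.0151). Cd4, a coreceptor carried by part of iNKT cells, had 44.0 and 42.7 CPM against 12.6 and 9.49 CPM (-2.04, SE 0.20, adjusted p 0.00493). These genes were named among those whose genotypes did not overlap, so their separation adds no support. Lmo4, a LIM domain transcriptional cofactor, had 127 and 90.3 CPM against 26.7 and 27.8 CPM (-2.08, SE 0.20, adjusted p 0.00493). The lincRNA AC163354.1 (38.5 and 42.9 against 6.09 and 6.10 CPM) and Ckb, a brain-type creatine kinase (81.0 and 79.5 against 32.3 and 24.1 CPM), were also lower. Lef1 and Rora differed by -1.19 and -1.18 on the log2 scale, and Cmtm7 by -1.25.

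Ifitm2, an interferon-induced membrane protein gene, had the largest rise among genes of at least 20 CPM, from 3.41 and 1.36 to 40.3 and 53.6 CPM (log2 difference 4.23, SE 0.37, adjusted p 0.00276). Ifitm2 lies on chromosome 7 at 140954837 to 140955987, and its family member Ifitm3 was one of the late genes that the rule limited, so Ifitm2 levels in these cells are not free of the rule. 5830411N06Rik had 11.006 and 9.76 CPM in C57BL/6 and 77.9 and 59.0 CPM in Hivep3-/- (2.63, SE 0.20, adjusted p 0.00162). S100a4, a calcium-binding protein of differentiated T cells, had 56.9 and 46.8 against 197 and 349 CPM (2.33, SE 0.29). Cd247, the zeta chain of the T cell receptor complex, had 196 and 167 against 445 and 432 CPM (1.19, SE 0.15, adjusted p 0.0151). The other large rises were of Hspa1b, a heat shock protein (14.9 and 10.7 against 144 and 49.2 CPM), Gzmc, a granzyme (11.006 and 10.4 against 38.4 and 68.8 CPM), Mdfic (1.45) and the cadherin Cdh13 (1.43 on the log2 scale). Hspa1b lay far apart in the Hivep3-/- mice and was not called without C57BL/6 replicate 2 (2.60, adjusted p 0.0625). Il2 had 0.524 and 0 CPM against 11 and 9.83 CPM, and Cx3cr1, a chemokine receptor of effector cells, 1.31 and 2.72 against 19.4 and 32.6 CPM. Ccr9, the thymic and gut homing receptor, had 29.1 and 10.7 CPM against 0.234 and 1.02 CPM (adjusted p 0.0270). The C57BL/6 mice lay apart from each other in Ccr9, and both were above the Hivep3-/- mice.

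**Figure D3:**
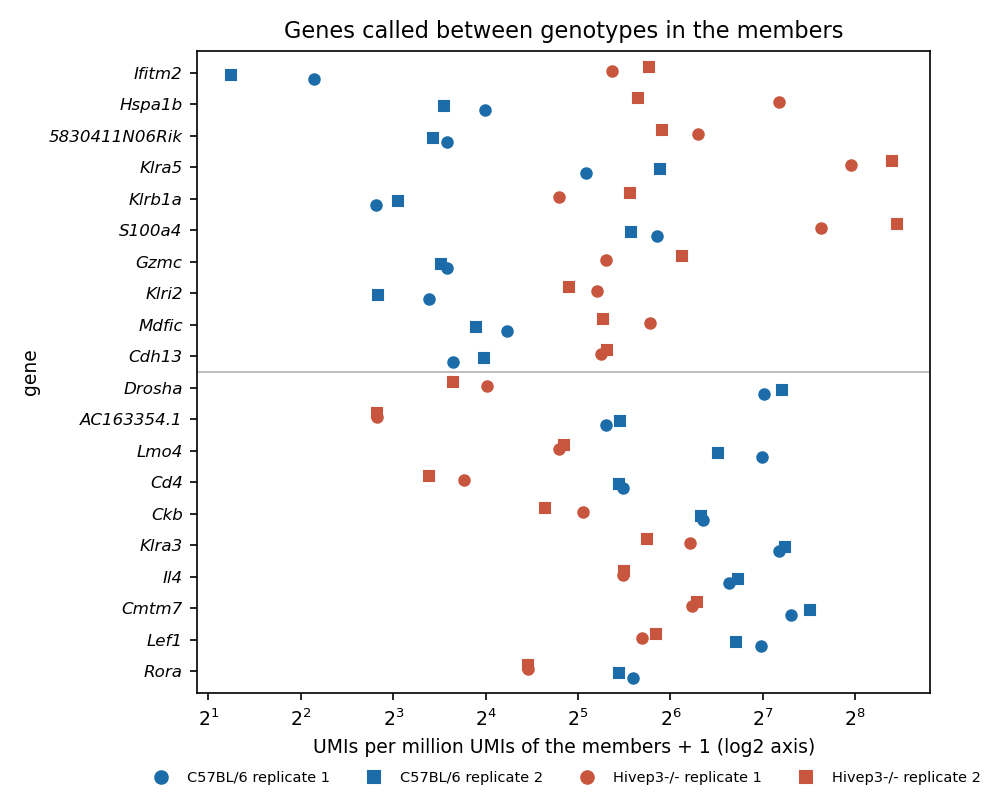
Levels in Izumo1r Cxcr3 cells (x axis, CPM plus 1, log2 axis) of the 10 largest rises and 10 largest falls between genotypes among called genes of at least 20 CPM (y axis, divided by the line), 1 point per library. The genes were picked among those whose groups do not overlap. Ifitm2 goes from 3.41 and 1.36 CPM to 40.3 and 53.6 CPM while Drosha goes from 128 and 147 CPM to 15.2 and 11.5 CPM.

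By gene group, the killer receptors changed in both directions. Of 21 tested receptors and adaptors, 4 rose (Klra5, Klrb1a, Klri2 and Klrc1) and 2 fell (Klra3 and Klra9), with a list median of 0.93 against -0.0022 over all genes on the log2 scale. Klrc1, which encodes the inhibitory receptor NKG2A, had 82.8 and 109 CPM in C57BL/6 and 260 and 271 CPM in Hivep3-/- (1.39, SE 0.18, adjusted p 0.0151). Klra5, a Ly49 receptor, rose from 33.0 and 58.1 to 246 and 336 CPM (2.59, SE 0.28), whereas Klra3, another Ly49 receptor, fell from 144 and 151 to 73.3 and 52.6 CPM (-1.31, SE 0.17). These genes lie in a cluster of killer receptor genes on chromosome 6, with Klra5 at 129898996 to 129917650, Klrc1 at 129666015 to 129678973 and Klra3 at 130323289 to 130337574. Members of the Ly49 family are near-identical in sequence, so reads may have been split between copies and the Klra values are uncertain. In the other lists few genes passed the test. Cd247 was the 1 called gene of 28 T cell receptor complex and signalling genes, and Itga4, an integrin chain, the 1 called of 19 egress and adhesion genes (2.62 and 7.49 against 34.6 and 27.5 CPM). Lef1 and Rora were called of 26 lineage transcription factors, while Tbx21 (means of 99.8 and 106 CPM) and Zbtb16 (-0.79, SE 0.20, adjusted p 0.267) were not. No gene passed among 24 immediate early, 8 Gimap, 22 costimulatory and inhibitory receptor, 20 cytokine receptor, 28 interferon response, 81 ribosomal and 71 oxidative phosphorylation genes. Of 27 genes that the study names between genotypes on these same samples, which is not independent evidence, 2 rose and 4 fell here (Ccr9, Drosha, Cd4, Il4, Cd247 and Klra5). The T cell receptor gamma segments Trgv2 (215 and 244 against 558 and 528 CPM, log2 difference 1.15, SE 0.15, adjusted p 0.0151) and Tcrg-V4 (67.9 and 72.0 against 139 and 156 CPM, 0.99, SE 0.16, adjusted p 0.0497) were called as well. These segments lie outside the rule for named genes and were picked after their values were seen.

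Of the 20 genes named by size, 5 were called in every alternative in which they could be tested: Drosha, AC163354.1, Lmo4, Klra5 and Ifitm2. The count of 35 was unsteady. It was 14 of 5878 genes tested after thinning to 2000 UMIs. There Cd4 (-2.40), Il4 (-1.24) and Lef1 (-0.99) kept a difference near the main one but did not pass (adjusted p 0.131, 0.152 and 0.491). The alternatives include fits without 1 library, which had 1 mouse in a genotype. Their spread came from the other genotype alone, so their counts of called genes are not given.

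Since HIVEP3 binds kappaB-like motifs, the promoters of the called genes were searched for GGGNNTTTCC on both strands, in the RefSeq windows from 250 bases before to 50 after each start (GRCm38.p6). A match was present in 1.63% of all 32851 promoters of this length. The lower genes had a match in 1 of 20 promoters (5.0%) and the higher genes in 1 of 17 (5.88%), too few to compare. Of the 14 lower genes, 12 had a promoter in the table and 1 of them held a match (Cmtm7), and of the 21 higher genes, 15 had a promoter and 1 held a match (Mdfic). The windows of these 2 genes and of Drosha, which had the smallest adjusted p and whose window held no match, are printed 5′ to 3′ on the strand of the gene, with the match in capitals. Cmtm7 lies at chr9:114781944-114782243 on the minus strand, Mdfic at chr6:15720411-15720710 and Drosha at chr15:12824565-12824864 on the plus strand.
Cmtm7: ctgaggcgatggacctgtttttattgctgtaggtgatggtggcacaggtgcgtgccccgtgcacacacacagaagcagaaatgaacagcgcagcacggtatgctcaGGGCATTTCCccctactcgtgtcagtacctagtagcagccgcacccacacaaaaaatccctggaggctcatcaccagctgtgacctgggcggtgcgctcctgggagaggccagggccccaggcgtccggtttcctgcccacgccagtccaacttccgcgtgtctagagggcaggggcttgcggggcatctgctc
Mdfic: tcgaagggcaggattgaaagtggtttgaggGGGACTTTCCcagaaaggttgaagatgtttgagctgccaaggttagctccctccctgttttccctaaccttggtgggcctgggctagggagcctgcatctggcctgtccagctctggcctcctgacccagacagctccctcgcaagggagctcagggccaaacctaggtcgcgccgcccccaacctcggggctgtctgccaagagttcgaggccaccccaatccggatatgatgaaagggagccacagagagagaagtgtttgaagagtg
Drosha: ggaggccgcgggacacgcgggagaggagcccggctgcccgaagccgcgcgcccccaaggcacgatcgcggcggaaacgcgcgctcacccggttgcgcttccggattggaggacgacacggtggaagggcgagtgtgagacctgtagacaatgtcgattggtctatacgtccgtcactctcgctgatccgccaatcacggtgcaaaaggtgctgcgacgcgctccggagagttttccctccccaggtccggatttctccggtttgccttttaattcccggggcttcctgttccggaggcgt

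Compared with marker-poor cells of the same libraries, Izumo1r Cxcr3 cells had more Il4, Cd4 and Gimap transcripts and less Igfbp4, Emb, Tnni1 and genes of iNKT17 cells. The 2 classes differ in the rule by the 4 markers alone, and the markers were chosen on these cells, so these differences describe what goes with the markers. Of 9650 genes tested with library as a block, 244 were called (2.53%), 105 higher (1.09%) and 139 lower (1.44%) in Izumo1r Cxcr3 cells. Il4 was higher in all 4 libraries, at 98.3, 105, 44.0 and 44.1 CPM against 79.5, 78.3, 33.1 and 25.5 CPM (log2 difference 0.49, SE 0.08, adjusted p 0.00174). Cd4 was at 44.0, 42.7, 12.6 and 9.49 CPM against 32.4, 27.02, 7.74 and 4.31 CPM (0.66, SE 0.11, adjusted p 0.00324). Both were higher within each genotype although each had fallen in Hivep3-/-. Gimap7, a GTPase of the family that supports T cell survival, had the largest rise by the naming rule, with 24.1, 37.5, 32.1 and 21.4 CPM against 18.9, 25.4, 17.8 and 11.3 CPM (0.70, SE 0.11). Of the 8 Gimap genes tested 4 were higher (Gimap4, Gimap5, Gimap6 and Gimap7) and none lower, with a median of 0.21 against 0.0068 over all genes. Rises without falls were not particular to this list. Higher were 7 of 28 interferon response, 6 of 24 immediate early and 11 of 81 ribosomal genes, with medians of 0.11, 0.098 and 0.10 and none lower. Dusp1 and Fos, which stood apart in C57BL/6 replicate 1, are among the immediate early genes. Tmem154 (0.47, SE 0.06) and Gimap7 were called under every alternative. Zbtb16 was higher by 0.26 (SE 0.06) and Tbx21 by 0.33 (SE 0.08), both near the threshold (adjusted p 0.0352 and 0.0495), and Zbtb16 was called in 4 of 10 alternatives. The transporter gene Abcb9, Dopey2, Igsf23, AC163354.1, 6330403K07Rik and the small GTPase gene Arl4d were the other named rises, from 0.47 to 0.58. AC163354.1 was called in 5 and 6330403K07Rik in 6 of 10 alternatives, and Arl4d had no difference left after thinning (-0.0058).

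The falls against marker-poor cells were larger. Igfbp4, an insulin-like growth factor binding protein, was at 37.5, 7.04, 19.7 and 43.1 CPM against 115, 40.2, 103 and 150 CPM (-1.91, SE 0.11, adjusted p 2.05e-07). Emb, a membrane glycoprotein of the basigin family, was at 20.7, 8.85, 24.6 and 34.6 CPM against 53.7, 61.2, 66.9 and 111 CPM (-1.68, SE 0.14). Tnni1, a troponin subunit gene, was at 3.14, 0.454, 10.5 and 35.9 CPM against 8.50, 3.002, 74.9 and 103 CPM (-1.95, SE 0.18). Most of its level lay in the Hivep3-/- libraries in both classes. Ccr6 (-3.77, SE 0.47), a chemokine receptor of iNKT17 cells, was lower, and the 10 iNKT17 markers summed to 35.2 to 68.3 CPM in Izumo1r Cxcr3 cells against 136 to 244 CPM in marker-poor cells. The part of iNKT17 cells among marker-poor cells in these differences was not tested. Tmem176a and Tmem176b (-1.70 and -1.38), neighbours on chromosome 6 whose ends overlap, are on the same iNKT17 list. Klf2, a factor of thymic exit, differed by -0.86 (SE 0.11). The count of 244 was 146 without C57BL/6 replicate 1, 128 without Hivep3-/- replicate 1 and 151 without Hivep3-/- replicate 2.

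Izumo1r Cxcr3 cells differed most from iNKT2-marker cells, with killer receptors, cytotoxic genes and Gimap genes higher and Ccr7, Il13 and genes of oxidative phosphorylation lower. Of 9387 genes tested, 3784 were called (40.3%), 1930 higher (20.6%) and 1854 lower (19.8%). iNKT2-marker cells were deeper (median 8744 to 11490 UMIs), and after thinning 635 of 4427 genes tested were called. Of 18 killer receptors and adaptors tested 17 were higher and none lower, with a median of 4.17 against 0.013 over all genes. Nkg7 or Klrb1c was required of the Izumo1r Cxcr3 cells but not of iNKT2-marker cells. Differences in killer and cytotoxic genes are therefore not free of the rule. Klrk1, the activating receptor NKG2D, was at 251, 209, 290 and 257 CPM against 7.26, 4.72, 13.4 and 5.82 CPM (5.07, SE 0.13, adjusted p 9.47e-11). Klre1 (41.1, 93.8, 96.0 and 106 CPM against 0.427 to 2.36 CPM), Klra9 and Klrc1 had similar differences of 4.84 to 6.15. Gzmb, a granzyme, was at 229, 412, 655 and 734 CPM against 7.90 to 18.0 CPM, and Itga1, the collagen-binding integrin CD49a, at 32.5, 29.1, 70.4 and 44.1 CPM against 0 to 2.14 CPM. Il12rb2 and Ifngr1, receptor chains for interleukin 12 and interferon gamma, were higher by 4.67 and 2.98. Styk1, Fgl2 and Klra5 complete the 10 largest rises among called genes of at least 20 CPM. The 8 Gimap genes were all higher, from 0.61 for Gimap9 to 2.69 for Gimap3. Of 24 immediate early genes 17 were higher and Egr2 was lower (-0.81). Dusp1 and Fos, which stood apart in C57BL/6 replicate 1, are on this list. Dusp1 was higher in every library, from 333 against 147 CPM in Hivep3-/- replicate 1 to 3216 against 512 CPM in C57BL/6 replicate 1.

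Among the genes lower than in iNKT2-marker cells, Ccr7, the lymph node homing receptor, was at 9.96, 3.86, 5.62 and 7.46 CPM against 102, 68.2, 105 and 65.2 CPM (-3.67, SE 0.15, adjusted p 4.78e-09). Il13 was at 11.5, 4.09, 1.40 and 1.70 CPM against 98.9, 54.6, 46.6 and 6.73 CPM (-3.49, SE 0.22). Plac8 (64.7, 51.5, 13.6 and 25.8 against 359, 361, 106 and 120 CPM) and Lmo4 (127, 90.3, 26.7 and 27.8 against 554, 467, 224 and 198 CPM) were lower in all libraries. Igfbp4, Emb, Pdlim1, Ccr9, Lgmn and Nme4 complete the 10 largest falls at that level, from -2.58 to -3.34. Of the transcription factors, Tbx21 (3.14), Zfp683 (2.97), Bhlhe40 (1.84) and Runx3 (1.45) were higher, and Zbtb16 (-1.29), Lef1 (-1.54), Tcf7 (-1.43), Id3 (-2.36) and Gata3 (-0.40) were lower. Of 71 oxidative phosphorylation genes 48 were lower and 4 higher, with a median of -0.22, and Atp5b, a subunit of ATP synthase, differed by -0.33 (SE 0.05). Receptor chains of the interferon gamma receptor moved apart, with Ifngr1 higher and Ifngr2 lower (0.681 to 4.92 against 20.1 to 51.6 CPM).

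Compared with late-marker cells, Izumo1r Cxcr3 cells had more Zbtb16, Icos, Il4 and Pdcd1 and less of killer receptors, chemokines and genes of thymic exit. Of 9469 genes tested, 1225 were called (12.9%), 536 higher (5.66%) and 689 lower (7.28%). The same Izumo1r Cxcr3 cells entered all 3 comparisons of classes. Zbtb16 was at 158, 108, 77.5 and 85.8 CPM against 67.8, 42.0, 26.0 and 25.6 CPM (1.42, SE 0.08, adjusted p 1e-08). Icos, a costimulatory receptor, was at 378, 254, 201 and 157 CPM against 157, 122, 83.2 and 67.8 CPM (1.17, SE 0.05, adjusted p 4.79e-10). In iNKT2-marker cells Zbtb16 was at 232 to 321 CPM and Icos at 492 to 740 CPM, so in every library the Izumo1r Cxcr3 cells lay between iNKT2-marker and late-marker cells for both genes. Marker-poor cells lay between them too, with Zbtb16 at 76.1 to 131 CPM and Icos at 160 to 283 CPM, and the rule limits the genes that define both classes. Il4 (1.40, SE 0.13) and Ramp1, part of the receptor for the neuropeptide CGRP (290, 277, 119 and 180 against 101, 95.7, 38.0 and 53.9 CPM), had the same order. Nrgn, Ephx1, Pdcd1, 6330403K07Rik, Ckb and Bcl2a1d complete the 10 largest rises among called genes of at least 20 CPM, from 1.01 to 1.65. Pdcd1, which encodes the inhibitory receptor PD-1, was at 78.9, 56.3, 47.3 and 59.7 CPM against 22.7, 27.7, 19.5 and 25.2 CPM. The transcription factors Myb (1.77, below 20 CPM), Maf (0.86), Rora (0.79), Tox (0.74) and Lef1 (0.72) were higher too.

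Of 21 killer receptors and adaptors tested 18 were lower than in late-marker cells and 2, Klra3 and Klrb1a, were higher, with a median of -0.90 against 0.0040 over all genes. Tyrobp, the signalling adaptor DAP12, was at 3.14, 4.99, 7.72 and 13.6 CPM against 31.8, 40.6, 141 and 132 CPM (-3.61, SE 0.14, adjusted p 1.35e-10). Fcer1g, another adaptor, was at 155, 138, 284 and 348 CPM against 551, 648, 919 and 1118 CPM (-1.88, SE 0.07). Klra3 was highest in Izumo1r Cxcr3 cells of all 4 classes in every library (144, 151, 73.3 and 52.6 CPM, against at most 109, 115, 53.2 and 47.8 CPM in the other classes). Of 19 egress and adhesion genes 13 were lower and none higher. Klf2, which drives expression of S1pr1, was at 379, 37.9, 107 and 108 CPM against 990, 275, 559 and 426 CPM (-2.08, SE 0.15). S1pr1, the receptor for thymic exit, was at 8.65, 7.49, 6.32 and 6.78 CPM against 18.7, 18.1, 34.0 and 31.8 CPM (-1.84, SE 0.18), and Itga1 differed by -1.14. Ccl4, a chemokine, was at 18.1, 7.26, 3.28 and 14.2 CPM against 54.9 to 101 CPM, and Ifng was lower by 1.42 on the log2 scale. Ifitm1 had at most 1.02 CPM in any library against 9.33, 96.3, 75.1 and 187 CPM in late-marker cells, and Ifitm2 was lower as well (-3.86). Both lie beside Ifitm3, which the rule limited. Tbx21 and Il2rb were near the late-marker level, with differences of -0.21 (SE 0.05) and -0.16 (SE 0.04). The Gimap genes were near it as well, with 2 of 8 lower and a median of 0.0092.

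**Figure D4:**
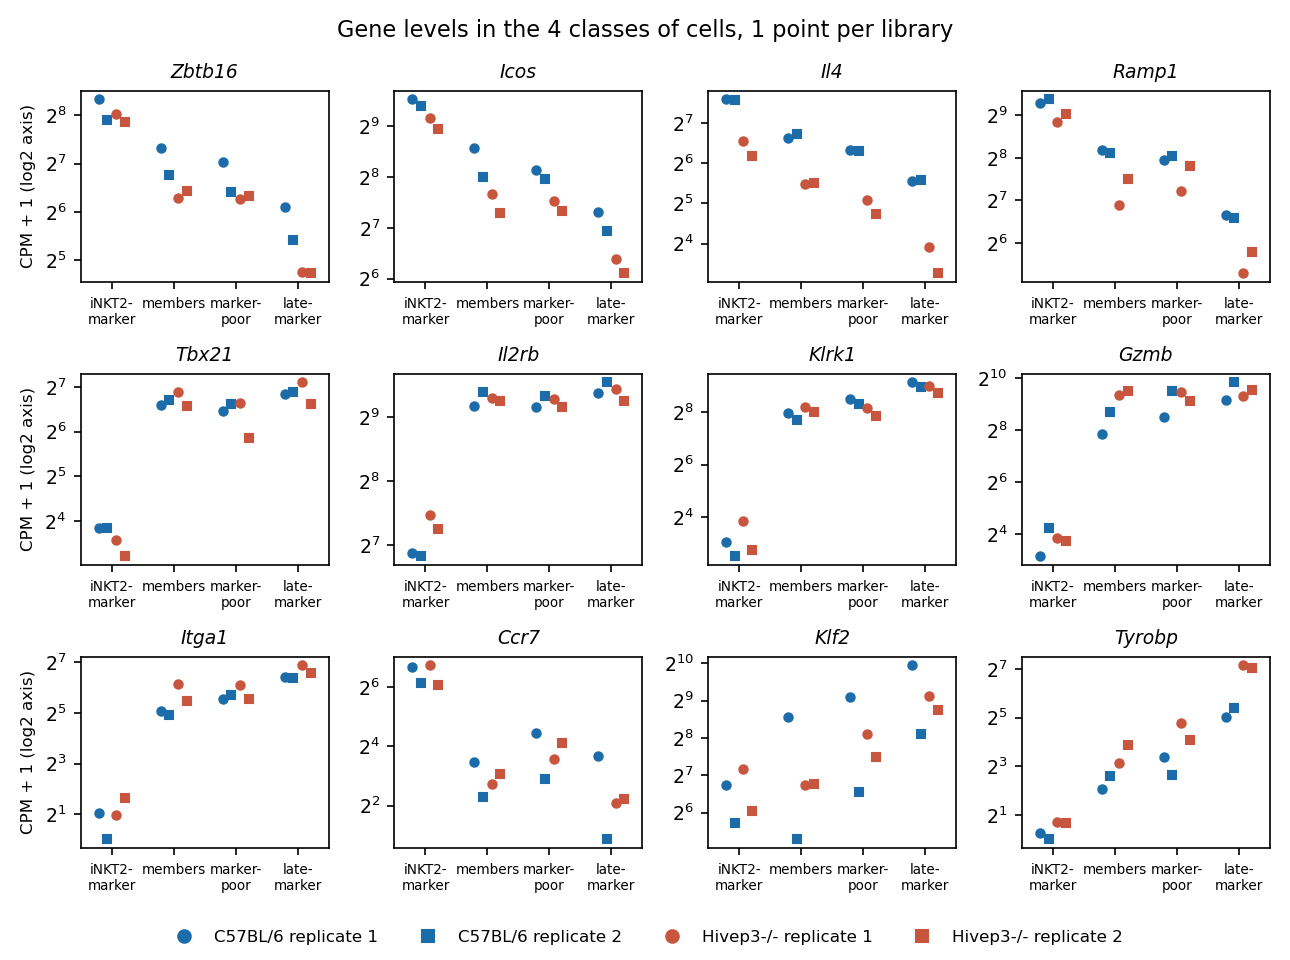
Levels of 12 genes (y axis, CPM plus 1, log2 axis) in the 4 classes of cells (x axis), 1 point per library. Zbtb16, Icos, Il4 and Ramp1 fall from iNKT2-marker over Izumo1r Cxcr3 (members) to late-marker cells in every library, Tbx21, Il2rb, Klrk1, Gzmb and Itga1 are lowest in iNKT2-marker cells, and Klf2 and Tyrobp are highest in late-marker cells.

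A last comparison asked whether the genotype difference in Izumo1r Cxcr3 cells was the same as in marker-poor cells, by the interaction of class and genotype with library as a block. Of 10072 genes tested, 65 were called (0.645%), 35 with a higher difference in Izumo1r Cxcr3 cells (0.347%) and 30 with a lower one (0.298%). The gene of smallest p was Klhdc2, part of a ubiquitin ligase, at 38.3, 31.3, 53.8 and 65.1 CPM in Izumo1r Cxcr3 cells against 41.6, 33.0, 145 and 183 CPM in marker-poor cells, a difference of differences of -1.34 (SE 0.13, adjusted p 5.21e-06). Id3, an inhibitor of E proteins, was at 104, 52.2, 130 and 94.9 CPM against 130, 63.0, 298 and 248 CPM (-0.95, SE 0.10, adjusted p 1.45e-05). In both genes the Hivep3-/- marker-poor cells stood above the other groups. Gzmb went the other way, with 229, 412, 655 and 734 CPM in Izumo1r Cxcr3 cells against 367, 723, 703 and 556 CPM (0.91, SE 0.11, adjusted p 0.00011). Gpr183, an oxysterol receptor (0.90, SE 0.11), and Klrk1 (0.68, SE 0.09) had positive differences as well. Of 22 killer receptors and adaptors 7 were called with a higher and 2 with a lower difference, with Klrc1 at 0.90 and Klra5 at 0.97. Marker-poor cells differed in makeup between genotypes, with Tnni1 at 8.50 and 3.002 CPM in C57BL/6 and 74.9 and 103 CPM in Hivep3-/-, and the part of that makeup in the interaction was not tested. The result rested on the setting: after thinning to 2000 UMIs 5 genes were called, with Id3 at -0.09 and Klrk1 at 0.09, and DESeq2 called 10.

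**Figure D5:**
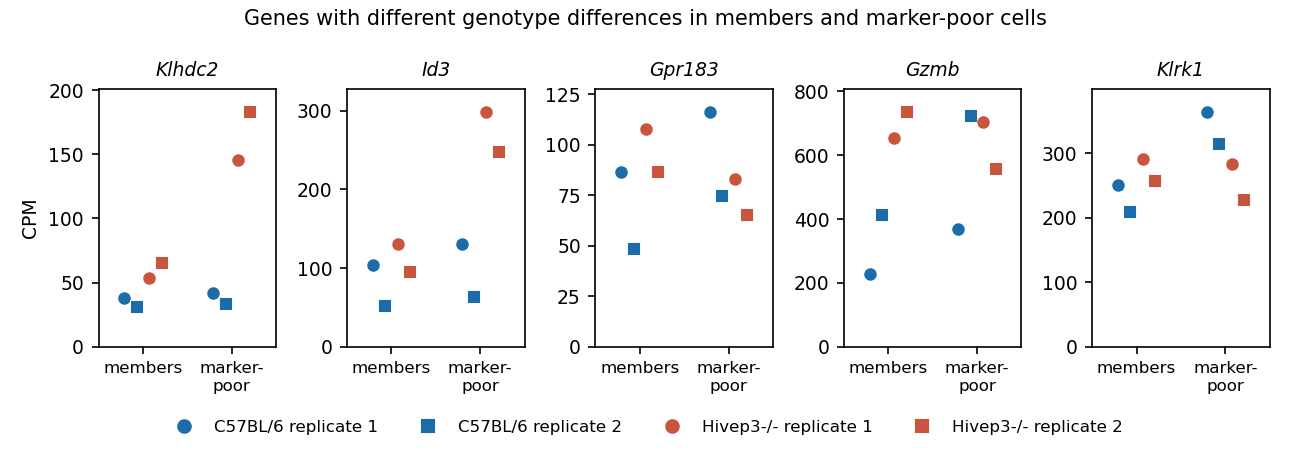
Levels (y axis, CPM, from 0) of the 5 genes of smallest p in the interaction, in Izumo1r Cxcr3 cells (members) and marker-poor cells (x axis), 1 point per library. Klhdc2 and Id3 are highest in the marker-poor cells of Hivep3-/-, at 145 and 183 CPM and at 298 and 248 CPM, and Gzmb in Izumo1r Cxcr3 cells is at 229 and 412 CPM in C57BL/6 and at 655 and 734 CPM in Hivep3-/-.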

How the data were processed

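Thymic iNKT cells of 2 C57BL/6 and 2 Hivep3-/- mice were profiled, 1 library per mouse. The deposited values were raw UMI counts, not normalized, from Cell Ranger 3.1.0 on mm10 as run by the authors. The thresholds of the study were used for cells: 500 to 4099 genes, 1000 UMIs or more and a mitochondrial share under 6%. No doublets were removed. The members, comparison classes, gene lists and tests were chosen with earlier results of these data known. Counts were summed per library and class and tested with edgeR 4.0.16 in R 4.3.3 (filterByExpr, TMM, two-sided quasi-likelihood test, Benjamini-Hochberg over all genes tested except the 25 of the rule), called at an adjusted p under 0.05. CPM values are unscaled. Named genes are the 10 largest rises and 10 largest falls per comparison among called genes of at least 20 CPM whose groups did not overlap (leaving out sex-linked and mitochondrial genes and T cell receptor segments), the 5 interaction genes of smallest p, and genes of the lists. DESeq2 1.42.0, no low-count filter, thinning, removal of the top 5% of Scrublet scores (scanpy 1.11.5) and leaving out each library were alternatives. The fits were tested on simulated counts. Of 31053 gene identifiers, 30934 were found in GENCODE vM21. P-values of the genotype test measure the spread between 2 mice per genotype. Those of the comparisons of classes and of the interaction, with library as a block, measure how the difference between classes varied between libraries. Counting error shrinks with depth. Some genes are not reported here.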

Additional observations from a re-analysis of the deposited data

Results flagged for a closer look

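Genes whose genotype difference differed between Izumo1r Cxcr3 cells and marker-poor cells were taken up here because the interaction of class and genotype passed edgeR's quasi-likelihood test. They numbered 65 of 10072, against 937 at an unadjusted p under 0.05. The 5 of smallest p had differences of differences (Izumo1r Cxcr3 minus marker-poor cells, log2) of -1.34 for Klhdc2, -0.954 for Id3, 0.901 for Gpr183, 0.912 for Gzmb and 0.676 for Klrk1. None of the 5 was called under every alternative.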

How the results depend on the processing

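The share of Izumo1r Cxcr3 cells among kept cells differed between genotypes by -4.35 percentage points, and leaving out 1 library gave -9.18 to 0.484, the last without C57BL/6 replicate 2. Counts of called genes moved more than directions did. For the genotype comparison (35) they were 54 with DESeq2, 274 with no low-count filter, 14 after thinning, 9 with at least 3 markers and 38 to 234 with 1 library left out. Against marker-poor cells (244) they were 89, 565 and 120 under the first 3 of these, 599 within Hivep3-/- alone and 128 to 290 with 1 library left out. Against iNKT2-marker cells (3784) DESeq2 called 2214 and thinning 635, and against late-marker cells (1225) 551 and 580. For the interaction (65) they were 10 with DESeq2, 154 with no filter, 5 after thinning, 32 without the top 5% of doublet scores and 50 to 146 with 1 library left out. Genes that changed sign did so after thinning to 2000 UMIs: against marker-poor cells Arl4d (-0.0058) and Pdcd1 (0.163), against iNKT2-marker cells Zap70 (-0.0818), against late-marker cells Ccr10 (-0.314) and Gimap7 (0.0119), and in the interaction Cd81 (0.461) and Slamf6 (0.0637). The cause of these moves was not tested, except that thinning leaves fewer UMIs and changes which cells meet the rule, and no filter adds genes. The replicate numbers were not shown to pair the mice: the differences between replicates 1 and 2 in the 2 genotypes correlated at 0.159 over 5011 genes, and with a replicate block 99 genes were called between genotypes, the 35 among them.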
